A study of Mus musculus with 4 samples.

Results

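Il1rl1 was measured in NIH/3T3 cells, a mouse embryonic fibroblast line, and was set beside the other lines of the same experiment. It is 1 gene of 33565 listed, and its values came from 2037 NIH/3T3 cells, 2323 N2a cells, and 2137 mESCs. The gene was chosen by measured values, since it had one of the largest ratios of CPM + 1 in NIH/3T3 cells to the higher of the other lines in an earlier analysis of these data. Its difference between the lines is therefore a description and carries no test.

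The study mixed 3 mouse cell lines in 1 CapSeq library, a split-pool single-cell RNA method in which a first barcode, BC1, records the plate well of each cell. N2a (Neuro-2a) is a neuroblastoma line, and it was grown like NIH/3T3 in DMEM with fetal bovine serum and penicillin-streptomycin. The mESCs were embryonic stem cells of the E14TG2a line, kept on gelatin in DMEM with serum, the same antibiotics, leukemia inhibitory factor, CHIR99021, PD0325901, non-essential amino acids, sodium pyruvate, L-alanyl-L-glutamine, and β-mercaptoethanol. Each line was 1 sample, told apart from the others in the shared library by BC1, so there were no replicates and no p-value is given. Counts of unique molecular identifiers (UMIs) were used from cells that had 1000 UMIs or more and a mitochondrial share of no more than 20%. The median was 4863 UMIs per NIH/3T3 cell, 6185 per N2a cell, and 4803 per mESC. Levels are CPM, the share of a gene in the summed UMIs of the cells of a line, scaled to counts per 1000000, with 95% exact Poisson intervals. Shares of cells have 95% exact binomial intervals, and all intervals cover counting error only. The 3 matrices shared 0 cell barcodes.

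The product of Il1rl1 is ST2, the receptor of the alarmin interleukin-33 (IL-33) and a member of the interleukin-1 (IL-1) receptor family. The membrane form pairs with the accessory protein Il1rap and signals through Myd88 and the IRAK kinases to NF-kB and the MAP kinases, and a shorter secreted form binds IL-33 without signalling. The gene was first found as a growth-induced transcript of serum-stimulated fibroblasts, and it is also well known in mast cells and in lymphocytes that respond to IL-33.

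On GRCm39 the gene (ENSMUSG00000026069) lies at chr1:40468730-40504575 on the plus strand and has 5 transcripts in GENCODE M39. Transcript 202 has 11 exons and ends at position 40504575, whereas transcript 203 has 8 exons and ends at 40487308, so the long and short transcripts have different 3' ends. Transcription starts at a distal and at a proximal promoter, and the distal promoter is the one known from mast cells and the proximal one from fibroblasts. The RefSeq table holds a window for both starts, on GRCm38.p6. The 250 bases before each start are shown because the gene is read here in a fibroblast line beside non-fibroblast lines. They lie at chr1:40429320-40429569 for the distal and chr1:40439379-40439628 for the proximal promoter on GRCm38.p6, plus strand. Capitals mark GATAAG, the core motif of GATA factors.
Distal promoter: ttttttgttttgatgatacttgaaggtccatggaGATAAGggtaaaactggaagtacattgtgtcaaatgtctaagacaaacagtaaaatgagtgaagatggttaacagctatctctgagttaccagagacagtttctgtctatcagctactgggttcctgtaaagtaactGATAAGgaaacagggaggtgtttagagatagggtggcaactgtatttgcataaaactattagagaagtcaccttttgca
Proximal promoter: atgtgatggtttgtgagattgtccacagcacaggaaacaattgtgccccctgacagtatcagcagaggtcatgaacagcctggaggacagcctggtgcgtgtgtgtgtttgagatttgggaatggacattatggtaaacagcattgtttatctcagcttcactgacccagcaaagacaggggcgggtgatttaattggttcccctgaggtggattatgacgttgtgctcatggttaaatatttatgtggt
GATAAG was found 2 times in the distal window, at positions -216 and -79 from the start, and 0 times in the proximal window. Searched on both strands, it was present in 6.55% of the 32851 RefSeq windows of this length. The motifs TGANTCA (AP-1), TGACGTCA (CRE), and GGAATTTCC (NF-kB) were found in neither window, and in 6.75%, 1.55%, and 0.286% of all windows. The motifs were picked after the sequences had been read, and a match or its absence says nothing about the factor. The counts are per gene, so neither the promoter nor the membrane and secreted forms can be told apart in these values.

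Il1rl1 was read in NIH/3T3 cells and close to 0 in both other lines. There were 6967 Il1rl1 UMIs in NIH/3T3 cells, a level of 596 CPM (582 to 610). The mESCs held 15 UMIs, a level of 1.22 CPM (0.681 to 2.01), and the N2a cells held 10 UMIs, a level of 0.557 CPM (0.267 to 1.02). The order was NIH/3T3, mESC, N2a, and the intervals of the latter 2 overlapped.

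The share of cells with an Il1rl1 UMI depends on depth, so each cell was also thinned at random to 1000 UMIs. At that depth, 37.8% (35.7 to 40.0) of NIH/3T3 cells held an Il1rl1 UMI, against 0.140% (0.0290 to 0.410) of mESCs and 0.0861% (0.0104 to 0.311) of N2a cells. Without thinning the shares were 76.2%, 0.702%, and 0.387%. The most Il1rl1 UMIs in a cell were 45 in NIH/3T3, 1 in mESCs, and 2 in N2a. UMIs on barcodes below the cell filter gave 514 CPM in the NIH/3T3 matrix, 12.9 CPM in the mESC matrix from 20 UMIs, and 2.22 CPM in the N2a matrix from 6 UMIs. The level outside cells was thus above that in cells for both of these lines, though for N2a it rests on 6 UMIs. The few UMIs in mESCs and N2a cells are not read as expression, and their source was not tested. The ratios of the levels in cells were 489 (296 to 875) over mESCs and 1069 (581 to 2231) over N2a. They rest on few UMIs in these lines, with intervals for counting error only.

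Markers fit the label of the line. Of 12 fibroblast markers, 11 were highest in NIH/3T3 cells, and the summed level of the 12 was 2753 CPM there against 884 CPM in mESCs and 278 CPM in N2a cells. The same 11 were at least 2-fold above both other lines on the scale of CPM + 1, where 8.98% of genes with at least 10 UMIs were. The exception was Fn1, which codes for fibronectin. Of the 11, the collagen gene Col3a1 reached 10 UMIs only through NIH/3T3 cells. The 12 immune markers, for cell types in which ST2 is also known, summed to 2.82 CPM in NIH/3T3 cells, and 6 of them were at 0. The 6 endothelial markers summed to 7.18 CPM, the 6 neuroblastoma markers to 6.67 CPM, and the 6 pluripotency markers to 15.9 CPM.

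NIH/3T3 cells carried 32 BC1 sequences, with 33 to 96 cells each. Their Il1rl1 level ranged from 398 CPM through a median of 602 CPM to 838 CPM, and for 21 of 32 the interval held the level of the whole line. All wells thus held the transcript, and 11 lay further from the line's level than counting error allows. BC1 sequences mark wells of 1 sample and are not replicates of a condition.

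**Figure D1:**
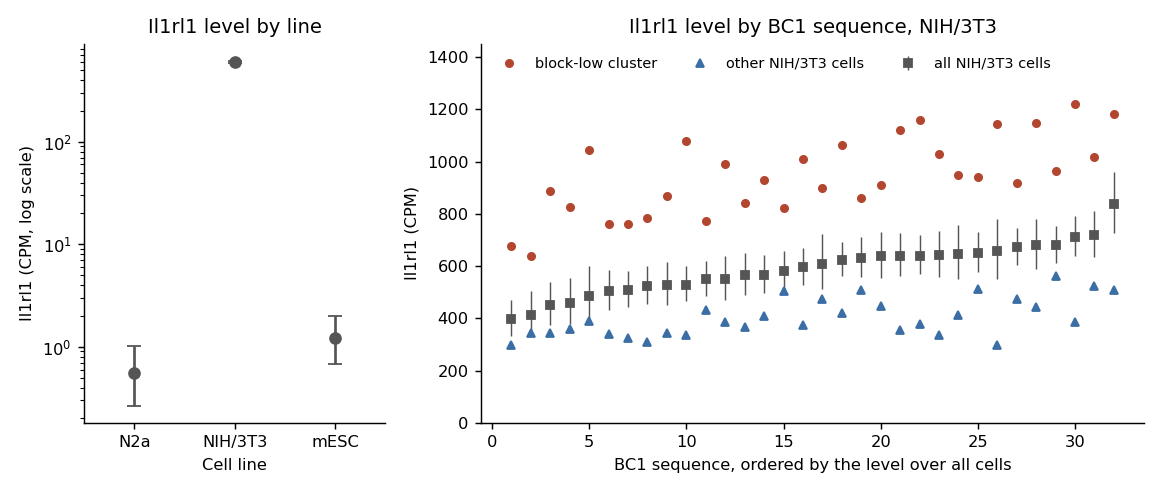
Left, the Il1rl1 level in CPM on a log axis by cell line, with 95% exact Poisson intervals. Right, the Il1rl1 level in CPM for each of the 32 BC1 sequences of NIH/3T3 cells, ordered by the level over all cells (squares, with intervals), with the block-low cluster (circles) and the other cells (triangles) drawn separately. NIH/3T3 stands at 596 CPM against 1.22 and 0.557 CPM, and every circle lies above every triangle.

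Il1rl1 varied between NIH/3T3 cells by more than counting alone gives. Thinned to 3000 UMIs, 1500 cells remained and 537 shallower cells were left out. The mean was 1.77 Il1rl1 UMIs per cell (SD 1.82), and the variance was 1.87 times the mean, where a Poisson count gives a ratio of 1. No Il1rl1 UMI was found in 428 cells, against 256 for a Poisson count of the same mean. At the other end, 64 cells held at least 6 UMIs, against 14.3 for the Poisson count, and the highest held 12. Among 516 genes with a mean between 0.883 and 3.53 UMIs, Il1rl1 had the 15th highest ratio, and their median was 1.15.

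Part of this spread followed a division of NIH/3T3 cells into groups. Clustering of the cells on 150 variable genes, with Il1rl1 left out, gave 4 clusters. Cluster 2, with 614 cells or 30.1%, had few UMIs of 7 neighbouring genes (Abcc4, Dnajc3, Dzip1, Gpc6, Gpr180, Tgds, and Uggt2) at chr14:117162727-119337272 on GRCm39. Their summed level was 12.4 CPM (9.19 to 16.3) in this cluster and 252 CPM (241 to 263) in the other cells, or 4.92% of it. This cluster is called block-low below after these genes, and it is given no cell type name. The 7 genes were known from earlier results of these data, and 0 of them were among the variable genes.

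Il1rl1 was higher in the block-low cluster. It stood at 951 CPM (921 to 981) there and at 409 CPM (394 to 423) in the other 1423 cells, a ratio of 2.33 (2.22 to 2.44). The remaining clusters had 324 CPM (688 cells), 404 CPM (429 cells), and 544 CPM (306 cells), each below the block-low cluster. The block-low cluster held 34.5% of the UMIs of the line and 55.1% of its Il1rl1 UMIs. An Il1rl1 UMI was found in 91.5% of its cells and in 69.6% of the others, without thinning. Clusters are drawn from the same cells, so this difference is a description with no test.

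The difference was present in every well. In the block-low cells of each BC1 sequence the level ran from 637 to 1219.9 CPM (median 935), and in the other cells from 296 to 562 CPM (median 386). The block-low cells were higher within 32 of 32 sequences, and all 32 block-low values exceeded the highest value of the other cells. Block-low cells made up between 15.8% and 39.6% of the cells of a BC1 sequence.

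The cells at the upper end of the distribution were mostly block-low cells. At 3000 UMIs, 32.2% of all cells were block-low, but 85.9% of the 64 cells with at least 6 Il1rl1 UMIs were, and 13.1% of the 428 cells with 0. Within the block-low cluster the mean was 2.90 UMIs per cell and the variance was 1.57 times the mean. Within the other cells the mean was 1.23 and the ratio 1.49. Both ratios were below the 1.87 of all cells but well above 1, so much of the spread beyond counting remained inside the groups. The share of block-low cells with 0 was 11.6%, against 5.48% for a Poisson count of their mean, and in the other cells it was 36.6% against 29.3%. The NIH/3T3 cell with 45 UMIs had 21384 UMIs in all, or 2104 CPM, and belonged to the block-low cluster.

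**Figure D2:**
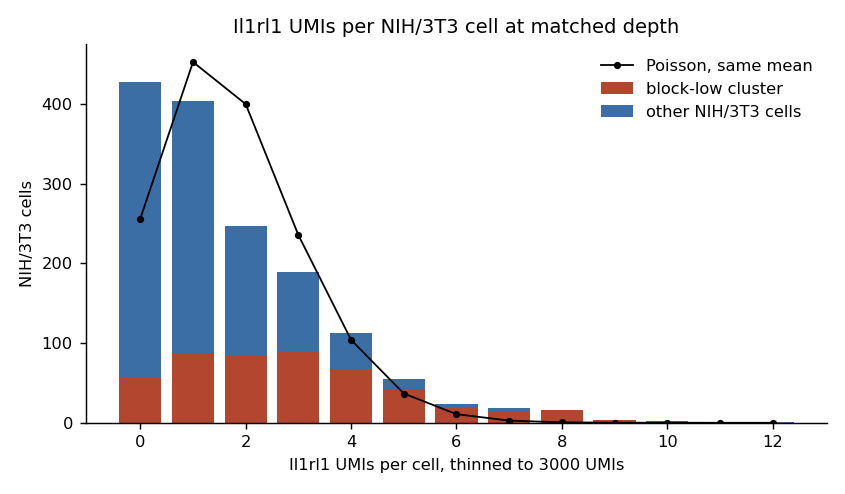
NIH/3T3 cells (y axis, number of cells) by Il1rl1 UMIs per cell after thinning to 3000 UMIs (x axis), with block-low cells below and other cells above in each bar, and a Poisson count of the same mean as a line. The bar exceeds the line at 0 UMIs (428 against 256 cells), lies below it from 1 to 3 UMIs, and exceeds it again at 4 UMIs (113 against 104 cells) and at 5 UMIs (55 against 36.8 cells), and 64 cells against 14.3 hold at least 6 UMIs.

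Depth, mitochondrial share, and markers moved with the block-low cluster. Its cells had a median of 5535.5 UMIs against 4584 in the other cells, and a median mitochondrial share of 3.18% against 2.21%. The fibroblast markers summed to 2445 CPM there and 2915 CPM in the other cells, the neuroblastoma markers to 10.4 and 4.70 CPM, and the pluripotency markers to 21.6 and 12.9 CPM. The fibroblast markers did not move together. Sparc was lower in block-low cells, with 463 against 976 CPM, as was Pdgfrb, a receptor of platelet-derived growth factor, with 1.49 against 32.6 CPM. Pdgfra, the related receptor, was higher, with 109.8 against 15.7 CPM, as was the collagen gene Col1a1, with 58.0 against 13.1 CPM. These examples were chosen after their values were seen. The immune markers summed to 2.97 and 2.74 CPM, and the endothelial markers to 9.66 and 5.87 CPM. The part of these markers and of the mitochondrial share in the difference was not tested. The Il1rl1 level also rose with depth. Cells with 1000 to 3471 UMIs had 477 CPM (443 to 512), cells with 3472 to 6418 UMIs had 542 CPM (517 to 568), and cells with 6423 to 26868 UMIs had 649 CPM (630 to 668). Within each of these depth groups the block-low cells were higher, with 835, 907, and 984 CPM against 354, 391, and 433 CPM.

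The genes that varied most closely with Il1rl1 across NIH/3T3 cells were also higher in block-low cells. Likeness was the Pearson correlation of count residuals, which allow for the total UMIs of a cell, over 2037 cells and 9307 genes with at least 0.05 UMIs per cell. All points share 1 library and 1 sample. The correlation exceeded 0.2 for 89 genes and 0.3 for 9, was below -0.2 for 28 and below -0.3 for 1, and had a median of 0.00253. The 10 highest genes lay on 9 chromosomes, so they are not a block of neighbours of Il1rl1.

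The highest were Gsta4, a glutathione transferase (0.392), Cald1, the actin-binding protein caldesmon (0.372), and Dcn, the matrix proteoglycan decorin (0.370). Nlgn1, a neuroligin (0.368), Grb14, an adaptor of the insulin receptor (0.356), and the long non-coding RNA 4930467D21Rik (0.346) followed. Ifitm3, an antiviral membrane protein (0.310), the long non-coding RNA Gm45589 (0.309), and Usp9x, a deubiquitinase (0.299), are the others of the 10 described. All 10 were higher in block-low cells, where 5.08% of 9308 genes were at least 2-fold above the other cells on the scale of CPM + 1. They were picked by correlation over cells in which Il1rl1 itself was higher in that cluster, so this direction largely follows from the selection. Nlgn1, Grb14, and Gm45589 were below the filter of 0.05 UMIs per cell in the other cells. Gsta4 had 655 CPM in block-low cells and 88.9 CPM in the other cells, Dcn 583 and 29.1 CPM, and Nlgn1 664 and 5.74 CPM. Grb14 had 145 CPM in block-low and 1.04 CPM in other cells. Their ratios between the groups of cells ran from 2.60 (2.42 to 2.80) for Usp9x to 187 (94.7 to 436) for Gm45589, beside 2.33 for Il1rl1.

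The lowest correlations were those of Timp3, an inhibitor of metalloproteinases (-0.304), Atp2b1, a calcium pump (-0.291), Sparc, a matrix protein (-0.277), Anxa1, annexin A1 (-0.273), and Zfpm2, a cofactor of GATA proteins (-0.269). All 5 were lower in block-low cells, with Timp3 at 26.0 against 432 CPM and Zfpm2 at 19.8 against 522 CPM, a direction that also largely follows from their selection. Of the 10 highest genes 7, and of the 5 lowest 3, were among the variable genes that defined the clusters.

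Within each group of cells the highest correlations were much smaller, whereas some of the lowest genes kept more of theirs. In the other cells Gsta4 had a correlation of 0.00110, Cald1 of 0.0486, and Dcn of 0.0335. In block-low cells they had 0.0858, 0.110, and 0.0403, and Grb14 kept the highest value of the 10, 0.182. Of the 10 genes, 0 were among the 50 highest in the other cells, where 6 of them passed the filter of 0.05 UMIs per cell, and 1 was among the 50 highest in block-low cells. Of the lowest genes, Anxa1 had -0.158 in block-low cells and -0.139 in the other cells, and Zfpm2 had -0.151 and 0.0302. Timp3 had -0.115 and -0.0842.

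**Figure D3:**
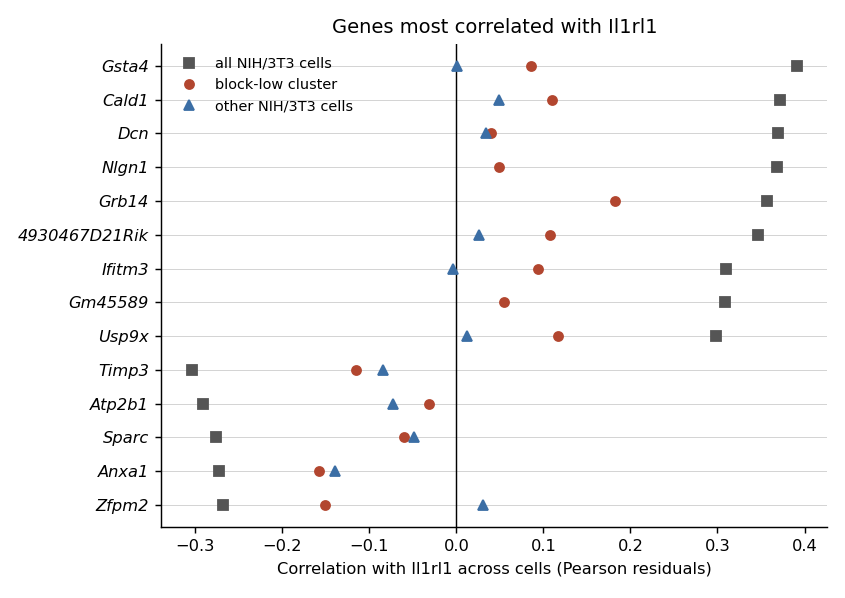
Correlation with Il1rl1 across NIH/3T3 cells (x axis) for 9 of the 10 highest and the 5 lowest genes (y axis), over all cells (squares), the block-low cluster (circles), and the other cells (triangles, absent for 3 genes below the filter). Gsta4 falls from 0.392 over all cells to 0.0858 and 0.00110 within the groups.

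Inside the groups, genes of mitosis came forward, mainly in the other cells and less so in block-low cells. The genes named in this paragraph were chosen after their values were seen. In the other cells the highest was Top2a, the topoisomerase of dividing cells (0.226), then Prc1, a spindle protein (0.222), Aurka, a mitotic kinase (0.209), and Kif20b, a kinesin of cell division (0.198). On a list of 28 G2/M genes, 19 were among the 50 highest there, out of 9021 genes. Over all cells 1 G2/M gene was among the 50 highest, and in block-low cells 7 were. The median correlation of the G2/M list was 0.143 in the other cells, 0.0909 in block-low cells, and 0.0966 over all cells, beside medians of all genes of 0.000937, -0.000698, and 0.00253. It was positive for 27, 26, and 28 of 28 genes, where 51.3%, 49.5%, and 52.2% of all genes were positive. In block-low cells the highest was Prrx1, a transcription factor of mesenchyme (0.256), which had 0.156 in the other cells. The lowest in block-low cells was Ppp3ca, a calcineurin subunit (-0.244). In the other cells the lowest was Spp1, osteopontin (-0.191). These correlations are small, and counts of this depth are sparse.

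Il1rl1 was higher in cells with more G2/M UMIs. Cells thinned to 3000 UMIs were split into low, middle, and high groups by the summed UMIs of the list. The 521 cells of the low group had 482 CPM (448 to 517), the 440 of the middle group 557 CPM (517 to 599), and the 539 of the high group 719 CPM (678 to 761). The high group was 1.49 times (1.36 to 1.64) the low group. Block-low cells made up similar shares of these groups, 29.2%, 34.3%, and 33.4%. Within block-low cells the high group had 1073 CPM and the low group 856 CPM, a ratio of 1.25 (1.10 to 1.42). Within the other cells the values were 542 and 322 CPM, a ratio of 1.68 (1.47 to 1.92). The ratio was above 1 in both groups of cells. The Il1rl1 level also rose with the depth of a cell before thinning, and the part of depth in these ratios was not tested.

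The S phase list gave no such order. The low group had 609 CPM, the middle group 595 CPM, and the high group 561 CPM, a ratio of 0.921 (0.840 to 1.01) whose interval held 1. Within block-low cells the ratio was 0.873 (0.767 to 0.992), just below 1, and within the other cells 0.967 (0.847 to 1.10). Of 28 S phase genes, 12 had a positive correlation with Il1rl1, where 52.2% of all genes did, with a median of -0.00778.

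Lists of serum and growth response genes were set beside Il1rl1 as well, since it is known as a serum-induced gene. The AP-1 and immediate-early list has 17 genes, and 4 of 17 were at least 2-fold above both other lines in NIH/3T3 cells, on the scale of CPM + 1, and 2 were below. Over all 19248 genes with at least 10 UMIs, 8.98% were above both lines and 7.48% below. Fosl1, an AP-1 subunit, had 188 CPM in NIH/3T3 cells, 0.812 CPM in mESCs, and 0.501 CPM in N2a cells, but its correlation with Il1rl1 was -0.00953. Jun, another subunit, had 232 CPM and a correlation of -0.0333. Dusp1, a phosphatase of MAP kinases, had 71.0 CPM, with 22.5 CPM in block-low and 96.6 CPM in other cells. Cells high in the list had an Il1rl1 level 0.870 times (0.795 to 0.951) that of cells low in it, where block-low cells fell from 39.3% to 27.0%. Within block-low cells the ratio was 0.988 (0.873 to 1.12) and within the other cells 0.920 (0.821 to 1.03), and both intervals held 1.

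The list of growth-induced genes, mostly for secreted and surface proteins, had 17 of 20 members with at least 10 UMIs. Of these, 14 were above both other lines, where 8.98% of all genes were, and 0 were below, where 7.48% were. Plau, Cxcl5, Ccl2, and Ccl7 reached 10 UMIs only through NIH/3T3 cells, by a filter that was the same for all genes. Hmga2, a chromatin protein, had 1494 CPM in NIH/3T3 cells, 47.6 CPM in mESCs, and 1.84 CPM in N2a cells. Ccnd1, cyclin D1, had 601 CPM, and Cd44, a hyaluronan receptor, had 356 CPM. Hmga1, Hmga2, and Ccnd1 code for nuclear proteins, not for secreted or surface ones. Hmga2 and Ccnd1 had the highest levels of the list in NIH/3T3 cells, so they weigh most in its summed UMIs. Il1rl1 was 1.41 times (1.28 to 1.55) as high in cells high in this list as in cells low in it, but the share of block-low cells ran from 13.3% to 50.9%. Within block-low cells the ratio was 0.986 (0.874 to 1.11) and within the other cells 0.917 (0.801 to 1.05), and both intervals held 1. The median correlation of the list with Il1rl1 was 0.0122 over all cells, and 8 of 14 were positive, where 52.2% of all genes were. Its members did not go one way within the groups. Spp1, named above for the lowest correlation in the other cells (-0.191), is on this list, with -0.0220 in block-low cells and 464 CPM in the line. Cxcl5, a chemokine named after its values were seen, had 0.167 in block-low cells and 0.0757 in the other cells.

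**Figure D4:**
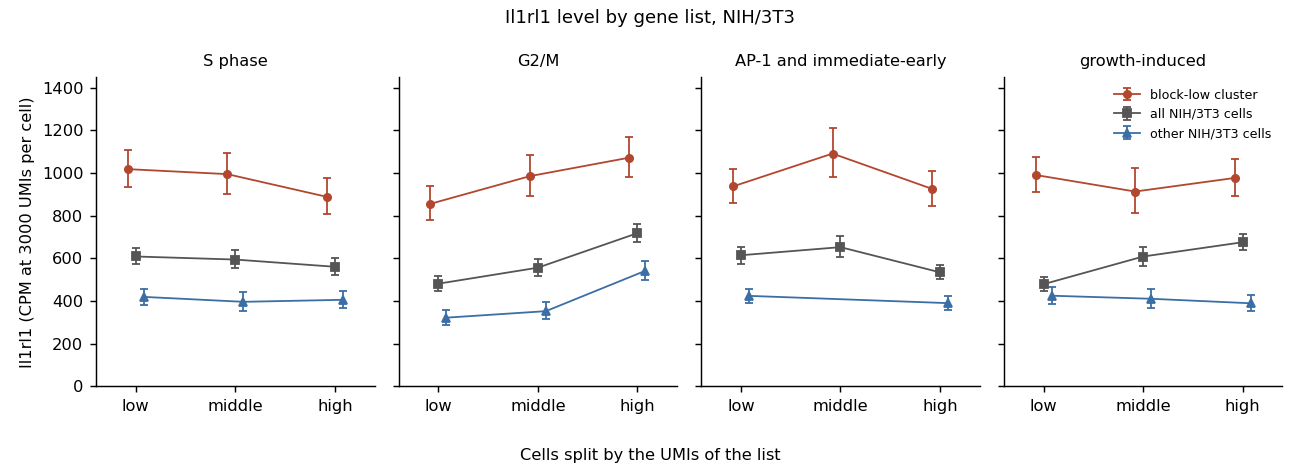
Il1rl1 level (y axis, CPM at 3000 UMIs per cell, with 95% exact Poisson intervals) in NIH/3T3 cells with low, middle, and high UMIs of 4 gene lists (x axis), over all cells (squares), block-low cells (circles), and other cells (triangles). Only for G2/M does the high group lie above the low group in all 3 sets of cells, and no middle group formed for AP-1 in the other cells because of ties.

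Transcripts of the other chain of the receptor and of its ligand were also higher in NIH/3T3 cells than in the other lines. Of 38 other genes in the lists of the IL-1 receptor family, its ligands, and IL-33 signalling, 28 had at least 10 UMIs. Of these, 7 were at least 2-fold above both other lines, where 8.98% of all genes were, and 1 was below both, where 7.48% were. The 7 were the receptors Il1r1, Il18rap, and Il1rap, the ligands Il33 and Il18, and the signalling genes Irak4 and Nfkb1. Il18rap and Il18 reached 10 UMIs only through NIH/3T3 cells, by a filter that was the same for all genes.

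Among receptors, Il1rap, the accessory chain of ST2 and of the IL-1 receptor, had 170.0 CPM in NIH/3T3 cells, 9.02 CPM in N2a cells, and 2.92 CPM in mESCs. Il1r1, the IL-1 receptor, had 14.8 CPM in NIH/3T3 cells, 0.974 CPM in mESCs, and 0 UMIs in N2a cells. Il18rap, the accessory chain of the IL-18 receptor, had 5.73 CPM in NIH/3T3 cells and 1 UMI in each other line. Il18r1, its partner, had 10 UMIs in NIH/3T3 cells. Sigirr, an inhibitory member, had 11.8 CPM in NIH/3T3 cells, 5.76 CPM in mESCs, and 1.45 CPM in N2a cells, which did not reach the 2-fold limit. Il1r2, the decoy receptor, and Il1rl2, the IL-36 receptor, had 0 UMIs in NIH/3T3 cells, while Il1r2 had 37 UMIs in N2a cells. Il1rapl1 and Il1rapl2 had their highest levels in mESCs, 7.63 and 12.3 CPM, against 2.14 and 1.80 CPM in NIH/3T3 cells.

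Of the ligands, Il33, which binds ST2, had 13.9 CPM (11.9 to 16.2) in NIH/3T3 cells, 1.06 CPM in mESCs, and 0.891 CPM in N2a cells. Il18 had 1.97 CPM in NIH/3T3 cells, from 23 UMIs. The other 8 ligands and antagonists, Il1a, Il1b, Il1rn, Il36a, Il36b, Il36g, Il36rn, and Il1f10, had between 0 and 3 UMIs in every line. Transcripts of the receptor, its accessory chain, and its ligand were thus all read in NIH/3T3 cells.

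Downstream, Nfkb1, a subunit of NF-kB, had 297 CPM in NIH/3T3 cells, 92.2 CPM in N2a cells, and 41.6 CPM in mESCs. Irak4, the first kinase of the pathway, had 31.1, 14.4, and 7.87 CPM in the same order. Irak3, a negative regulator, was the gene below both lines, with 0.342 CPM in NIH/3T3 cells, 32.0 CPM in mESCs, and 2.17 CPM in N2a cells. Nfkbia, the inhibitor of NF-kB, had 153 CPM in NIH/3T3 cells and 123 CPM in N2a cells. The remaining genes tested, Irak1, Irak2, Traf6, Map3k7, Tab1, Tab2, Tab3, Chuk, Ikbkb, Ikbkg, Rela, Tollip, Mapk14, and Mapk8, were neither above nor below both other lines, with 10.8 to 128 CPM in NIH/3T3 cells. Myd88, the adaptor of the receptor, was listed at 0 in all 3 lines. In GENCODE M39 it overlaps Acaa1a on the opposite strand, and its level is not read here.

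**Figure D5:**
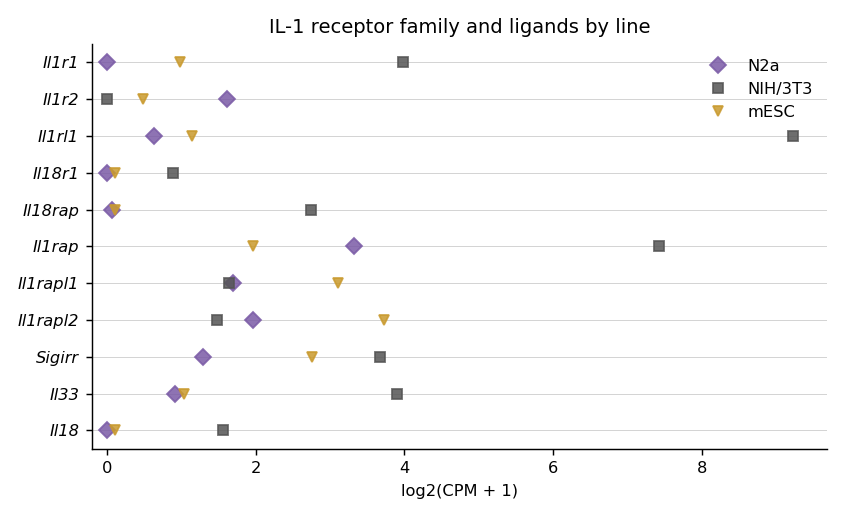
Level as log2(CPM + 1) (x axis) of the IL-1 receptor family and ligand genes with at least 10 UMIs (y axis) in N2a cells (diamonds), NIH/3T3 cells (squares), and mESCs (triangles). Il1rl1 and Il1rap stand furthest to the right in NIH/3T3 cells, at 596 and 170.0 CPM, while Il1r2, Il1rapl1, and Il1rapl2 are highest in another line.

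Of the IL-1 list genes, 21 could be set against the block-low cluster. The cluster was at least 2-fold above the other cells for Il1r1, Il33, and Irak2, where 5.08% of 9308 genes were above, and at least 2-fold below for Nfkb1, where 4.11% were below. Il1r1 had 31.2 CPM in block-low cells and 6.13 CPM in the others, Il33 33.9 and 3.39 CPM, and Irak2 23.0 and 4.31 CPM. In the other cells alone these genes were below the filter of 0.05 UMIs per cell. They thus passed it only through the block-low cluster, by a filter that was the same for all genes. Nfkb1 had 169 CPM in block-low cells and 365 CPM in the others. Il1rap did not differ in this way, with 178 and 166 CPM, a ratio of 1.07 (0.979 to 1.18). As levels without a test, Il1rl1 and Il33 transcripts were both higher in the cluster, and Il1rap was not.

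The same division showed when cells at 3000 UMIs were sorted by whether they held a partner's UMI. Cells with an Il1r1 UMI (66) had 929 CPM of Il1rl1 and cells without had 573 CPM, and 75.8% of the former were block-low. Cells with an Il33 UMI (54) had 895 CPM and cells without had 577 CPM, and 83.3% of the former were block-low. Within the block-low cluster the ratios were 1.12 for Il1r1 and 1.05 for Il33, and in the other cells 1.18 and 0.723. Il1r1 UMIs were found in only 1.57% and Il33 UMIs in only 0.885% of the other cells, too few for a direction to be read there. Cells with an Il1rap UMI (554) had 574 CPM against 598 CPM, and the ratio was 1.01 within the block-low cluster and 0.902 in the other cells. Il1rl1 and Il1rap UMIs met in 26.1% of cells, where the product of their shares was 26.4%. At this depth Il1rap was thus neither more nor less often read in the same cell as Il1rl1 than the separate shares give, and no test was made.

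Most neighbours of Il1rl1 had few UMIs in NIH/3T3 cells. The gene lies on chromosome 1 in a cluster of IL-1 receptor genes. There, Il1r1 ends 112 kb before it and Il1rl2 ends 62.0 kb before it. Il18r1 starts 137 bases after its end, on the same strand, and Il18rap starts 49.9 kb after its end. In NIH/3T3 cells Il18r1 had 0.855 CPM (0.410 to 1.57), from 10 UMIs, although it lies directly after Il1rl1. Further out, Map4k4, a kinase, had 168 CPM in NIH/3T3 cells, 207 CPM in N2a cells, and 183 CPM in mESCs, and was thus read in all 3 lines. Mfsd9, a transporter, had 7.61 CPM in NIH/3T3 cells, 0.0812 CPM in mESCs, and 0 UMIs in N2a cells. Slc9a2, an ion exchanger, had 1 UMI in NIH/3T3 cells and 7 in each other line, and Tmem182, a membrane protein, had 17 UMIs in NIH/3T3 cells.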

How the data were processed

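RNA was measured in single cells of 3 mouse lines with CapSeq. The authors trimmed the reads, aligned them to GRCm39 with GENCODE M30, and deposited raw UMI counts per gene and barcode from STARsolo, with no cell filter. The strand setting of the counting was not given in the sources used here. The pooled matrix came from the same reads and served only as an alternative. Depth in the cells used was 11697865 UMIs for NIH/3T3, 17955221 for N2a, and 12322098 for mESC. The cell filter followed the study. No doublet caller was run, and the 5% of cells with the most UMIs were left out as an alternative. Correlations used analytic Pearson residuals (theta 100). Clustering used the scaling to 10000 counts, 150 variable genes, and 100 neighbors of the study, but Il1rl1 was left out, and 50 components and Leiden at a resolution of 0.5 were choices made here. Genes named were Il1rl1, the IL-1 lists, neighbors within 500 kb with at least 10 UMIs, the 10 highest and 5 lowest correlations, and up to 4 genes per other list. Genes named for the filter on UMIs or after their values were seen came beside these. Of the 10 highest correlations, 1 gene is not reported here. Il1rl1, the lists, and the tests were chosen with earlier results of these data known. No test between lines was made, as each line was 1 sample of the shared library. The interval of a ratio, the residual correlation, and the variance to mean ratio after thinning were tested on simulated data. The other steps were not. The tools were R 4.3.3 and Python 3.11.15 with leidenalg 0.10.2, igraph 0.11.9, scipy 1.17.1, numpy 2.4.6, and scikit-learn 1.9.0.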

Additional observations from a re-analysis of the deposited data

How the results depend on the processing

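No paired analysis was possible because each line was 1 sample. Of 80 alternative values, 52 stayed within the counting error of the value reported or within a set tolerance around it, 26 moved, and 2 reversed. The NIH/3T3 level was 570 CPM without the 5% of cells with the most UMIs and 541 CPM as a mean over single cells, and the mESC level was 2.52 CPM over all barcodes. The shares of cells were 76.2%, 0.702%, and 0.387% in NIH/3T3, mESCs, and N2a without thinning, and 71.5% in NIH/3T3 at 3000 UMIs. The variance to mean ratio was 1.31 at 1000 UMIs. Settings that split off the block-low cluster were partly chosen after seeing the data. The variance to mean ratio was 1.57 within the cluster and 1.49 without it, and the growth-induced ratio turned to 0.986 and 0.917. The G2/M ratio was 1.25 and 1.68, and the AP-1 ratio 0.988 within the cluster. The S phase ratio was 1.02 at 1000 UMIs, and block-low over other cells was 2.45 at 1000 UMIs with another seed. Of the 10 named genes, 0 were among the 50 highest without the cluster and 1 within it. The correlation of Gsta4 was 0.00110 without the cluster, 0.0858 within it, 0.30003 on log UMIs, and 0.295 by ranks, and that of Timp3 -0.0842 and -0.115. At 4-fold, 4 IL-1 list genes were above and 0 below both lines, and with 5 CPM added 0 were below. With 1 sample per line, the error between cultures is unknown, and genes near 0 are limited by depth.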
